A study of Mus musculus with 5 samples.

Results

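Calcium enters neurons through voltage-gated channels, is released from the endoplasmic reticulum through IP3 and ryanodine receptors, and is removed by pumps in the plasma membrane and in the store membrane. In the dentate gyrus (DG), the input region of the hippocampus, these proteins set how granule cells fire, release transmitter and carry activity signals to the nucleus. The 41 genes described here were chosen by symbol from 23420 gene symbols, by a rule that uses no measured value but was written with earlier results of these data known: 10 pore subunits of voltage-gated calcium channels (Cacna1 genes), 13 auxiliary subunits (Cacna2d, Cacnb and Cacng genes), 6 intracellular release channels (Itpr1 to Itpr3 and Ryr1 to Ryr3), 3 SERCA pumps that fill the store (Atp2a genes), 4 plasma membrane pumps (Atp2b genes), 4 genes of store-operated entry (Stim1, Stim2, Orai1 and Orai2) and the cation channel gene Trpm3. Of these genes, 7 were lower than the control library by 0.3 or more on the log2 scale in at least 1 group, and an eighth, Atp2b1, passed this size only between L-RUN and H-RUN. None was higher than the control by 0.3 or more. In L-RUN, the low runners, 6 of the 36 expressed calcium genes were lower (16.7%), against 2.33% of all expressed genes. Only 0.797% of all expressed genes were higher there. Among expressed genes with transcripts at least as long as the calcium genes' median, 11.6% were lower there, and 5 of 18 calcium genes were. Itpr1, Trpm3, Cacna1e and Atp2b3 had the largest differences, all of them in L-RUN. After removal of a trend with transcript length, these 4 were the only ones still lower there by 0.3 or more.

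The DG was micro-dissected from wild-type male CD1 mice, an outbred strain, that the labels give as 4 months old and the study's methods as younger. LD mice lived alone with a locked running disk, RUN mice lived alone with a working disk, and CE (complex environment) mice lived in groups with a locked disk and tunnels, all for 4 weeks. L-RUN and H-RUN are the 4 RUN mice that ran least and the 4 that ran most. Each group was 1 library of pooled RNA, from 8 mice for LD, CE and RUN and from 4 mice for L-RUN and H-RUN, so the RUN pool was made from the 8 mice that also gave the other 2 running pools. LD and RUN cages differed in whether the disk turned, whereas CE differed from LD in company and in tunnels at once. No group had a replicate library, so no test was possible, and differences between mice cannot be separated from differences between conditions.

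The values are regularized log values (rlog), which are log2 expression values that the authors' software pulled towards each gene's mean, so a difference between libraries understates the change of genes with few reads. Sequencing depth is unknown, since the files hold no counts. A gene is called expressed at a mean of at least 5 over the 5 libraries, which 36 of the 41 calcium genes and 13550 genes in all reached, and it is called lower or higher at a difference of at least 0.3, the size of difference the study used. The only error that can be measured is technical: the RUN value can be set against what L-RUN and H-RUN mixed in equal parts would give. Over all expressed genes this residual had an SD of 0.0316, which gives a technical SD of 0.0365 for a difference between 2 libraries. The call of 0.3 is 8.23 times that SD. Per the study, RNA was extracted from each mouse before pooling, so RUN shares its dissections and extractions with L-RUN and H-RUN. The SD thus leaves out error of those steps and differences between mice, which every comparison below also carries. Tissue markers bear on every comparison below. Granule cell markers were present in all libraries. Prox1, the transcription factor that defines these cells, lay between 11.61 and 12.01 and was called lower than LD in L-RUN (-0.41). Of the 10 granule cell markers listed, 1 was called lower and 2 higher in L-RUN. Leptomeningeal genes, which mark the membranes around the brain, were unevenly spread. The summed log2 level of the 12 listed genes was 14.05 in L-RUN and 13.49 in RUN, against 12.80 in CE, 12.55 in LD and 12.43 in H-RUN. Of the 11 expressed ones, 8 were called higher than LD in L-RUN, 7 in RUN, 4 in CE and none in H-RUN, where Dcn was called lower (-0.52). Of 6 markers of CA1 pyramidal cells, the neighbouring hippocampal field, 4 were called lower in L-RUN. In the other groups only Fibcd1 of these was called, lower in RUN (-0.46) and H-RUN (-0.52) and higher in CE (0.31). Of 8 astrocyte markers, 2 were called lower in L-RUN, Slc1a2 (-0.36) and Slc1a3 (-0.301, at the edge of the call), and none higher. In bulk tissue, fewer cells of a type and less RNA per cell cannot be told apart.

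To compare levels between genes, the LD value was divided by the length of the longest annotated transcript and is given as log2 per kilobase. Among the pumps, Atp2a2, the SERCA pump of most tissues, stood at 11.81 and Atp2b1, a widely expressed plasma membrane pump, at 11.58. Cacnb3, a cytoplasmic beta subunit, reached 11.26 and was the most abundant of the channel subunits. Among the pore subunits, Cacna1h (a T-type channel, which opens at weak depolarization) led at 10.22, ahead of Cacna1e (the R-type channel) at 9.87 and Cacna1a (the P/Q-type channel of nerve terminals) at 9.18. Ryr2 was the most abundant release channel at 10.16 and Itpr1 followed at 9.49, whereas Itpr3 was near the bottom at 3.40. Orai2, a pore of store-operated entry, stood at 10.95 and its relative Orai1 at 6.46. The 5 genes below the expression minimum were Cacna1f, Cacna1s, Cacng1, Cacng6 and Atp2a1, and include the retinal channel and the skeletal muscle channel and pump.

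**Figure D1:**
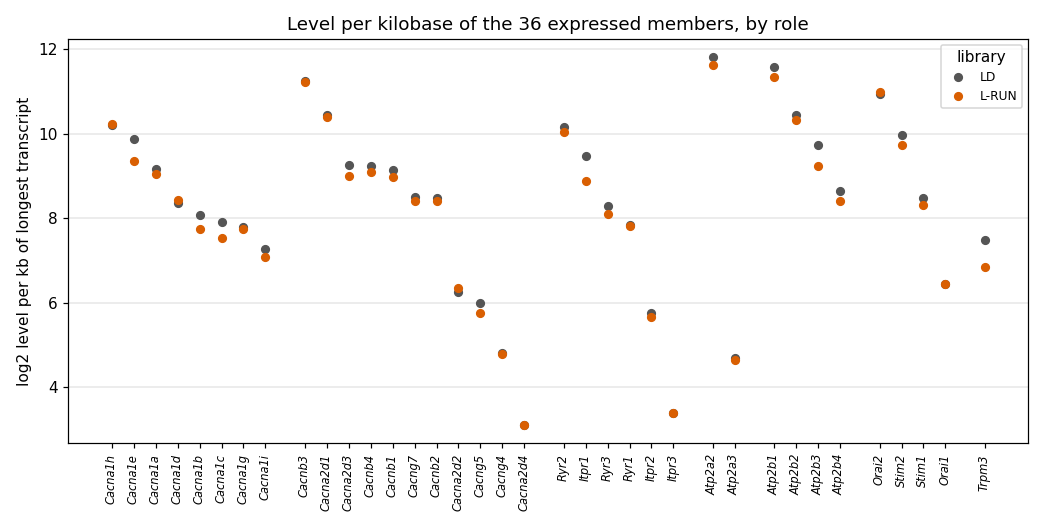
Level per kilobase of the 36 expressed calcium genes in LD (grey) and L-RUN (orange), as the log2 rlog level per kilobase of the longest annotated transcript, ordered by role and then by level. In LD, levels ran from 11.81 for Atp2a2 to 3.12 for Cacna2d4, and the gap between LD and L-RUN is widest for Trpm3 and Itpr1.

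To find out in which housing condition the calcium genes differed from LD, they were read beside all expressed genes. In CE, 1 of 36 was called lower, where 0.266% of all expressed genes were, and none higher, where 0.332% were. In RUN, 4 of 36 were called lower (11.1%, against 0.952% of all expressed genes) and none higher (against 0.362%). In L-RUN, the low runners, 6 of 36 were called lower (16.7%, against 2.33%) and none higher (against 0.797%). In H-RUN, the high runners, 3 of 36 were called lower (8.33%, against 0.472%) and none higher (against 0.354%). All 4 comparisons share the LD library. The shares among genes with long transcripts were higher and are given further below. Between the runners, 4 of 36 were lower in L-RUN than in H-RUN (11.1%, against 0.974% of all) and none was higher (against 0.561%).

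Taken over the whole list, the calcium genes were below LD in L-RUN and, less so, in RUN. Their median difference was -0.13 in L-RUN, -0.06 in RUN and -0.02 in both H-RUN and CE, beside medians within 0.01 of 0 over all expressed genes. In L-RUN, 32 of the 36 were below LD, beside 6874 of 13550 genes in all. Of the 946 expressed genes with transcripts at least as long as the calcium genes' median, 806 were below LD there. Their median was -0.13, and 16 of the 18 calcium genes of such length were below LD. L-RUN was the lowest of the 5 libraries for 23 of 36 (63.9%, against 28.1% of all expressed genes). LD was the highest library for 12 of 36 (33.3%), near the background of 28.1%. The count of low values thus gathered in L-RUN, the library with the high leptomeningeal level and the low CA1 markers; their part in this shift was not tested.

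**Figure D2:**
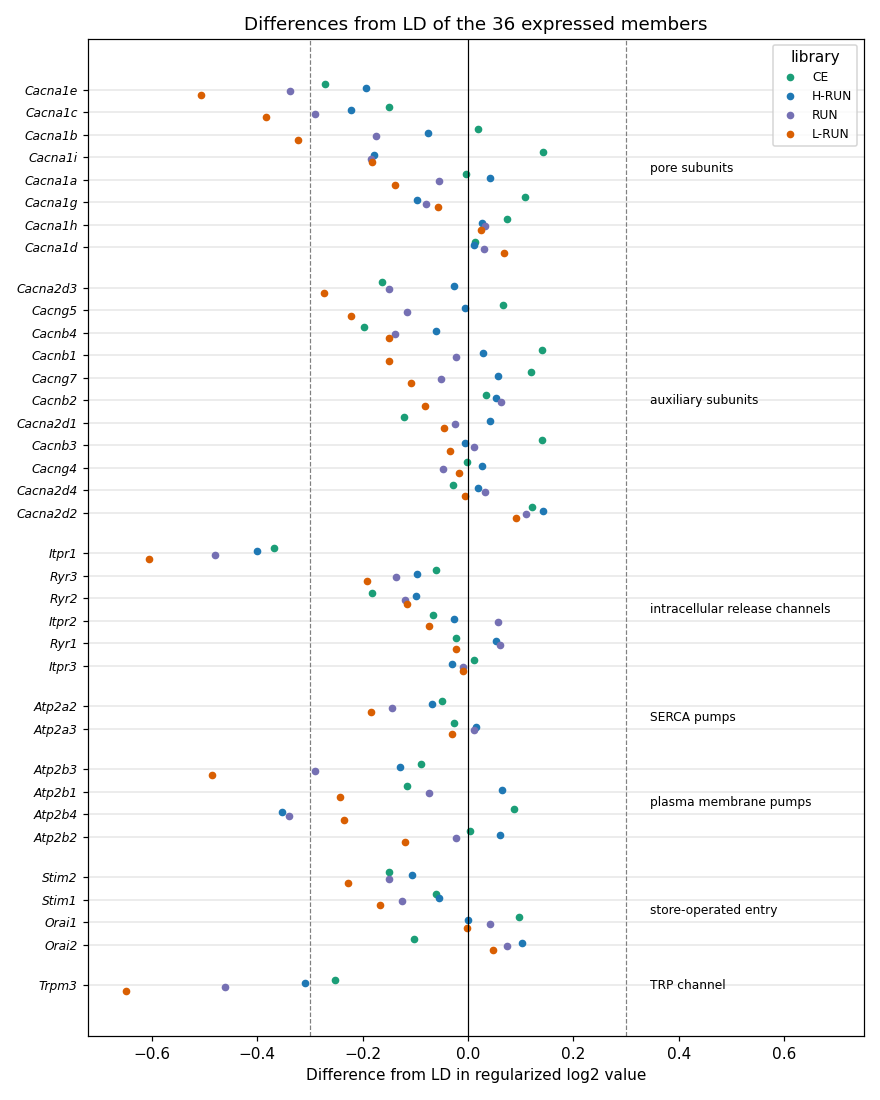
Difference from LD in rlog value (log2) of each of the 36 expressed calcium genes, grouped by role, for CE, H-RUN, RUN and L-RUN, with dashed lines at the call of 0.3. Calls lie on the lower side only, and L-RUN reaches -0.60 for Itpr1 and -0.65 for Trpm3, whereas Cacna1h and Cacna1d stay within 0.08 of LD in all 4 libraries.

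Itpr1 was lower than LD in every other library. It encodes the main IP3 receptor of neurons, which releases stored calcium after receptors at the surface have activated phospholipase C, and it lies at chr6:108213096-108551109 on the plus strand (GRCm38, here and for all positions). The LD library had an rlog value of 12.79, above 12.42 in CE, 12.39 in H-RUN, 12.31 in RUN and 12.18 in L-RUN. LD stood apart at the top, and the other 4 libraries lay within 0.24 of each other. The difference from LD was -0.60 in L-RUN, -0.48 in RUN, -0.40 in H-RUN and -0.37 in CE, which is 34.2%, 28.3%, 24.2% and 22.5% less on the linear scale, with a technical SD of 0.022 for genes of this level. Itpr1 was the only calcium gene called in CE, and it was called in all 4 comparisons with LD.

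The other release channels did not pass 0.3. Ryr2, the most abundant ryanodine receptor, had a value of 14.23 in LD, against 14.14 in H-RUN, 14.12 in L-RUN, 14.11 in RUN and 14.05 in CE, so that all 4 lay below LD by 0.10 to 0.18. Ryr3 was below LD by between 0.06 and 0.19, and Ryr1, the form known from skeletal muscle, stayed within 0.06 of LD. Itpr2 and Itpr3, the less abundant IP3 receptors, lay between -0.07 and 0.06 of LD. Among the 6 release channels, only Itpr1 was thus called, and the median of the 6 in L-RUN was -0.09.

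Trpm3 had the largest difference of the calcium genes, in L-RUN. It encodes a calcium-permeable cation channel of the TRP family, known as a sensor of heat and of steroids in sensory neurons, and lies at chr19:22139046-22995410 on the plus strand. The LD library had an rlog value of 11.12, above 10.87 in CE, 10.81 in H-RUN, 10.66 in RUN and 10.47 in L-RUN. LD was again the highest library and L-RUN the lowest. The difference from LD was -0.65 in L-RUN (36.2% less), -0.46 in RUN and -0.31 in H-RUN, and reached -0.25 in CE, short of the call. L-RUN also differed from H-RUN, by -0.34. The call in H-RUN lay at the threshold and was lost under quantile normalization and on removal of a trend with GC content, whereas those in RUN and L-RUN were kept under both. Trpm3 is an abundant gene of the choroid plexus, of whose 9 listed markers 3 were expressed. Ttr was above LD in all 4 libraries, by 0.13 to 0.62, Kl was below LD in the running libraries, by 0.03 to 0.11, and Sostdc1 was below LD by 0.01 to 0.04 in all 4. The summed level of the list was between 9.63 and 9.66 in LD and the running libraries and 9.85 in CE, and its part in the difference of Trpm3 was not tested.

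Of the 8 expressed pore subunits, 3 were called lower in L-RUN. Called lower there were 2.33% of all expressed genes and 11.6% of those with transcripts as long as the calcium genes' median or longer. Cacna1e (chr1:154390731-154884501, minus strand), the R-type channel of dendrites and spines, had a value of 13.77 in LD, 13.58 in H-RUN, 13.50 in CE, 13.43 in RUN and 13.26 in L-RUN. It was called in RUN (-0.34) and L-RUN (-0.51), and not in CE (-0.27) or H-RUN (-0.19), and L-RUN differed from H-RUN by -0.31. Here CE lay farther from LD than H-RUN did. Cacna1c (chr6:118587240-119196418, minus strand), the L-type channel that links activity to transcription, was 11.64 in LD, against 11.49 in CE, 11.42 in H-RUN, 11.35 in RUN and 11.26 in L-RUN. Its difference was -0.38 in L-RUN and -0.29, just short of the call, in RUN. Cacna1b (chr2:24603887-24763152, minus strand), the N-type channel of nerve terminals, was 11.37 in CE and 11.35 in LD, above 11.28 in H-RUN, 11.18 in RUN and 11.03 in L-RUN. Only the L-RUN difference of -0.32 was called, and CE was within 0.02 of LD. Under quantile normalization this call was lost, at -0.29. With the trend with transcript length removed, neither Cacna1c (-0.23) nor Cacna1b (-0.19) was called in L-RUN.

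The remaining pore subunits set a contrast to these 3. Cacna1d, the other L-type channel of the brain, was at most 0.07 above LD, and Cacna1h was within 0.08 above LD in all 4 libraries. Cacna1a was -0.14 in L-RUN and within 0.06 of LD elsewhere. Within the L-type pair, Cacna1c was thus lower in each library than in LD and Cacna1d was not. The T-type gene Cacna1i, chosen after its values were seen, was 10.56 in LD, 10.70 in CE and between 10.37 and 10.38 in the 3 running libraries. It was above LD in CE by 0.14 and below it in the 3 running libraries by 0.18 each, none of them called. The last, Cacna1g, lay between -0.10 and 0.11.

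No auxiliary subunit was called. The Cacna2d and Cacnb proteins bring the pores to the membrane and tune their opening. The Cacng genes were placed in this group by symbol, and which channels their proteins join was not examined. Cacna2d1, the target of gabapentin, was highest in H-RUN at 13.39, followed by LD (13.35), RUN (13.33), L-RUN (13.30) and CE (13.23). Cacnb3 lay between -0.03 and 0.14 of LD, and Cacnb4 between -0.20 and -0.06. All 11 expressed auxiliary subunits were lower in L-RUN than in H-RUN, by 0.03 to 0.25, none of them called. So were 32 of all 36 expressed calcium genes and 6958 of 13550 expressed genes, called or not. Against LD, the 11 ranged from -0.27 to 0.09 in L-RUN and from -0.06 to 0.14 in H-RUN.

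**Figure D3:**
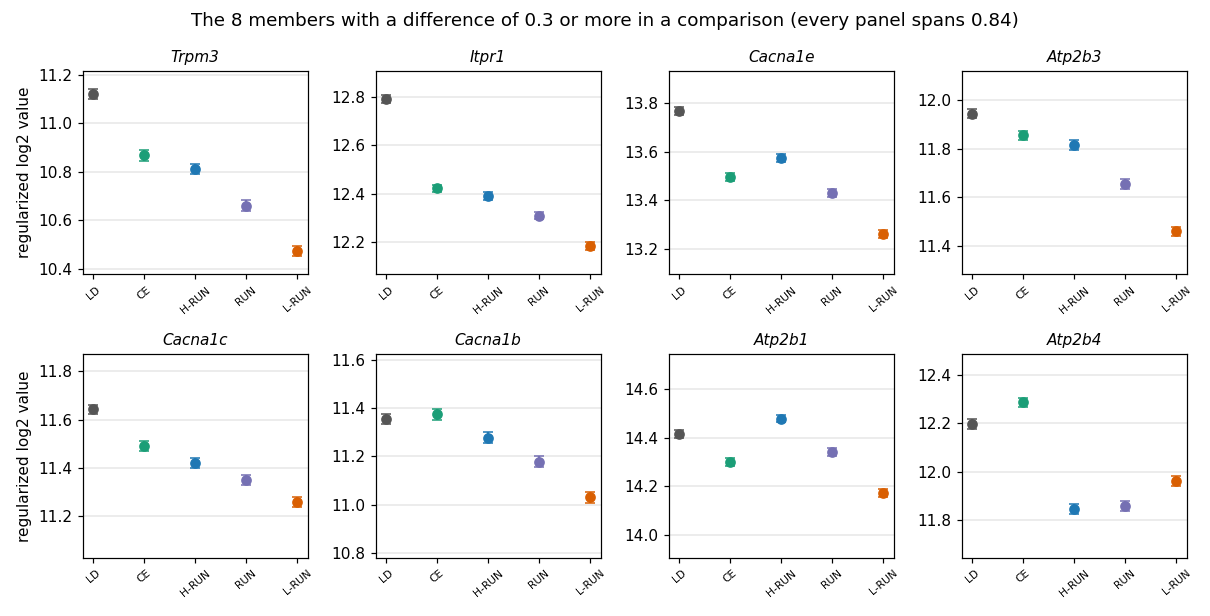
Rlog value (log2) in each of the 5 libraries of the 8 calcium genes called in at least 1 comparison. Every panel spans the same range, points are single libraries and bars are the technical SD of 1 library. In 5 of the panels (Trpm3, Itpr1, Cacna1e, Atp2b3 and Cacna1c) LD is the highest library and L-RUN the lowest, and in that of Atp2b4 the 3 running libraries lie below both LD and CE.

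The plasma membrane pumps split by isoform. These pumps hold resting calcium low, and Atp2b2 and Atp2b3 are the fast forms of neurons. Atp2b3 (chrX:73503086-73571005, plus strand) was 11.95 in LD, above 11.86 in CE, 11.82 in H-RUN, 11.66 in RUN and 11.46 in L-RUN. Only the L-RUN library was called, at -0.49 from LD (28.6% less) and -0.36 from H-RUN. Atp2b4 (chr1:133699457-133801041, minus strand) had another order, at 12.29 in CE, 12.20 in LD, 11.96 in L-RUN, 11.86 in RUN and 11.85 in H-RUN. It was called in RUN (-0.34) and H-RUN (-0.35) and not in L-RUN (-0.24), so it was the only one of the 8 for which H-RUN was the lowest library. Atp2b1 (chr10:98914406-99026143, plus strand) was 14.48 in H-RUN, 14.41 in LD, 14.34 in RUN, 14.30 in CE and 14.17 in L-RUN. It was not called against LD, and its call came from the difference of -0.31 between L-RUN and H-RUN. Atp2b2 lay between -0.12 and 0.06 of LD.

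Store refilling and store-operated entry showed small differences. Atp2a2 had a value of 14.32 in LD, against 14.27 in CE, 14.25 in H-RUN, 14.17 in RUN and 14.13 in L-RUN, with -0.18 in L-RUN as its largest difference. Atp2a3 stayed within 0.04 of LD. Stim2, a sensor of store calcium, was lower than LD in all 4 libraries, from -0.11 in H-RUN to -0.23 in L-RUN, and Stim1 ranged from -0.06 in H-RUN to -0.17 in L-RUN. Orai2 lay between -0.10 in CE and 0.10 in H-RUN, and Orai1 between 0.00 and 0.10. None of these genes was called.

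The 2 running pools were made from the same mice as RUN, which gives each gene a technical repeat. The RUN value differed from that of L-RUN and H-RUN mixed in equal parts by 0.108 at most, for Itpr2 (named after its values were seen), and by 0.05 or less for each of the 8 called genes. For Trpm3 the residual was 0.009, for Itpr1 0.019, for Cacna1e 0.003 and for Atp2b3 0.006. RUN thus repeats the mean of the 2 pools and neither pool's own value. It leaves differences between mice, and error of dissection and RNA extraction, unmeasured.

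**Figure D4:**
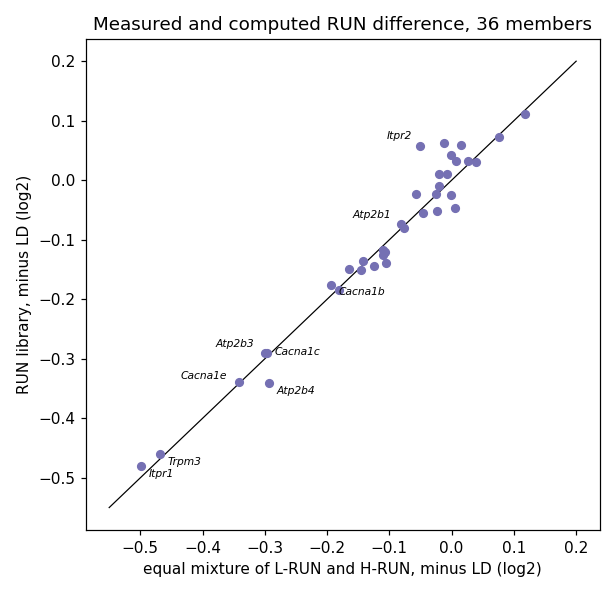
Difference from LD (log2) measured in the RUN library, on the vertical axis, against that computed for L-RUN and H-RUN mixed in equal parts, for the 36 expressed calcium genes, with the line of equality. The called genes lie within 0.05 of the line, and Itpr2 is farthest from it at 0.108.

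Transcript length moved with these differences. Calcium channels have long transcripts: the median of the longest annotated transcript was 7681 nt over the expressed calcium genes and 3523 nt over all expressed genes, of which 94.2% had a length. Across those 12765 genes, which share the same libraries, the difference in L-RUN had a Spearman correlation of -0.513 with length, and those in CE, RUN and H-RUN had -0.326, -0.493 and -0.367. Among the 946 expressed genes with a transcript at least as long as the calcium genes' median, 11.6% were called lower in L-RUN, 5.71% in RUN, 1.48% in H-RUN, 1.59% in CE and 4.33% in L-RUN against H-RUN. Of the 18 calcium genes in this class, 5, 4, 3, 1 and 2 were called. The median difference in L-RUN was -0.14 over these 18 and -0.13 over the 946, so the shift of the calcium genes with long transcripts was close to that of other genes of such length. The 18 calcium genes with shorter transcripts had a median of -0.09 and 1 call, Atp2b3. In CE, the difference also followed GC content, with a Spearman correlation of 0.56 over all expressed genes.

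The calls of single genes were then taken relative to the length trend, by subtracting a smooth curve of the difference against length over all expressed genes. In L-RUN, 4 of 36 were still called lower, against 1.43% of all expressed genes with a length. These were Trpm3 at -0.50, Itpr1 at -0.47, Atp2b3 at -0.45 and Cacna1e at -0.34, whereas Cacna1c was at -0.23 and Cacna1b at -0.19. In RUN, Itpr1 (-0.38) and Trpm3 (-0.35) were left, 2 of 36 against 0.462% of all. In H-RUN, Itpr1 alone was left, at -0.34 (against 0.353% of all). In CE it was also the only one, at -0.301, at the edge of the call (against 0.141%). Atp2b3 has a transcript of 4637 nt, shorter than the median of the calcium genes. It was the only one still called lower in L-RUN than in H-RUN, at -0.34 (against 0.705% of all). The median of the 36 moved to -0.05 in L-RUN, with 23 of 36 below the curve. Whether the trend with length arose in the tissue, in the RNA or in the sequencing was not tested.

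**Figure D5:**
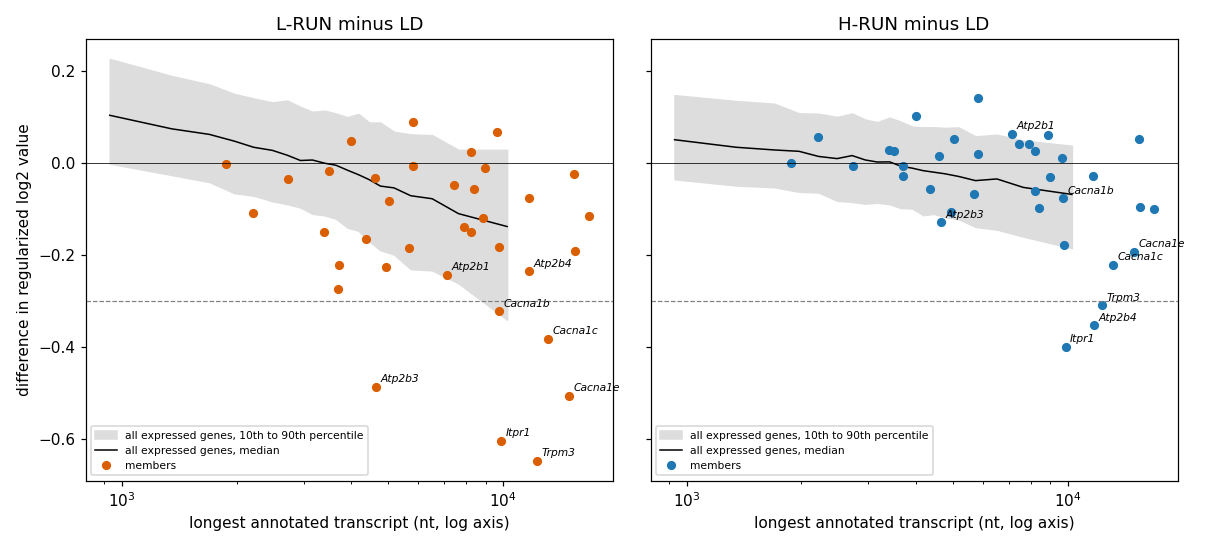
Difference from LD (log2) against the longest annotated transcript (nt, log axis) in L-RUN (left) and H-RUN (right). The line and the grey band are the median and the 10th to 90th percentile of all expressed genes in 20 classes of length, points are the 36 calcium genes, and the dashed line is the call of -0.3. In L-RUN the median of all genes runs from 0.10 in the shortest class to -0.14 in the longest, and Atp2b3, Itpr1 and Trpm3 lie farthest below the line.

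Promoters were read for the called genes, to show what sequence lies at their starts. Of the 41 genes, 31 matched a RefSeq promoter table (GRCm38.p6; 250 bases before to 50 after a start), with 44 starts, and of the 8 called ones 6 matched, with 10 starts. Shown are a start of each of the 3 matched genes called in 2 or more comparisons with LD, and that of Cacna1b as a contrast, since it holds matches. Capitals mark matches, on either strand, to a cAMP response element (TGACGTCA), an AP-1 site (TGANTCA), an EGR site (GCGNGGGCG), a GC box (GGGCGG, which can overlap an EGR site), a CACGTG E-box or a TATA box (TATAAA).
Trpm3, first of 2 starts (chr19:22138796-22139095, plus strand): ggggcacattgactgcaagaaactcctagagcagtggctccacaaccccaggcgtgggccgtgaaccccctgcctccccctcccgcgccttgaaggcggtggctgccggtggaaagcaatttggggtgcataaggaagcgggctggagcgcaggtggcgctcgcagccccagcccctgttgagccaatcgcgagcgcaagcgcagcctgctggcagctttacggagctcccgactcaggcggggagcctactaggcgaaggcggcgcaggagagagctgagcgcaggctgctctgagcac
Cacna1e (chr1:154725871-154726170, minus strand): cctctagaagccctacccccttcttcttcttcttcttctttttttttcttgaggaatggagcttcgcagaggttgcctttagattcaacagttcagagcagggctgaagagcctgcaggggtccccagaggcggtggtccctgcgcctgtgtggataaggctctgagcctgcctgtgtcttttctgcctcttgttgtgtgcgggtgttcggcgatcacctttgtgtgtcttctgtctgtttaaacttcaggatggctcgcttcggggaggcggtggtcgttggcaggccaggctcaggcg
Atp2b4 (chr1:133753698-133753997, minus strand): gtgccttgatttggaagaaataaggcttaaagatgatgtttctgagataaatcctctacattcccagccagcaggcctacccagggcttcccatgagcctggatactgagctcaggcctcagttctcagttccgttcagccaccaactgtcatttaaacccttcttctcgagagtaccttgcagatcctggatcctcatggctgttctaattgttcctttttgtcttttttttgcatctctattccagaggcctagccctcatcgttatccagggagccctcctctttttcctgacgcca
Cacna1b (chr2:24763103-24763402, minus strand): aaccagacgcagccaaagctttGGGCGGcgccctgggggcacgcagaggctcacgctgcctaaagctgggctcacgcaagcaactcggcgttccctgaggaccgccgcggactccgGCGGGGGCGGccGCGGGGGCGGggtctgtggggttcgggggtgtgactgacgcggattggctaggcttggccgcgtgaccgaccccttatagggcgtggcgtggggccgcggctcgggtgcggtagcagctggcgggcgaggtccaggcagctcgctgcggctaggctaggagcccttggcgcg
The promoters of Trpm3, Cacna1e and Atp2b4 shown here held none of these motifs. Those of Cacna1e and Atp2b4 lie at starts inside the annotated genes, whose 5' ends are at chr1:154884501 and chr1:133801041. The sequence at these 5' ends was not read. The promoter of Cacna1b held 2 EGR sites and 3 GC boxes, and has 35 CG pairs, where that of the internal start of Atp2b4 has 4. Over the 10 starts of called genes, 4 held a GC box, 2 an EGR site, 1 the CACGTG E-box and none the other 3 motifs. Over all 44 starts of calcium genes the GC box was in 28, the EGR site in 9 and the E-box in 3. Of 32851 promoters of this length, 35.7% held a GC box, 5.55% an EGR site, 7.15% the E-box, 7.81% an AP-1 site, 1.79% the cAMP response element and 13.6% a TATA box. These matches are letters in a window and say nothing of binding.

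Other genes of calcium handling were counted from lists of exchangers, buffers, kinases, store proteins and channel partners. Of 99 symbols, 92 were found and 85 were expressed. None was called in CE or H-RUN. In RUN, 2 were called lower (2.35%, against 0.952% of all expressed genes) and 1 higher: Homer2 (-0.35), a scaffold that ties metabotropic glutamate receptors to IP3 receptors, and Itpkb (-0.39), a kinase that removes IP3, were lower, and Kcnip3 (0.32), a calcium sensor of potassium channels, was higher. In L-RUN, 9 of 85 were called lower and none higher. That is 10.6%, against 2.33% of all expressed genes. The share was 11.6% among genes with long transcripts, but the transcript lengths of the 85 genes were not examined, so these 2 shares cannot be compared. These were Itpkb (-0.40) and Homer2 (-0.48) again, the sodium-calcium exchangers Slc8a1 (-0.41), Slc24a2 (-0.34) and Slc24a4 (-0.30), the calmodulin-dependent kinases Camk1d (-0.34) and Camk2a (-0.31), the active zone protein Rims1 (-0.45), which binds presynaptic channels, and the cation channel Trpc5 (-0.44).

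Among the exchangers, 3 of 7 expressed genes were called in L-RUN, and the median of the 7 was -0.18. Of these calls, that of Slc24a4 was at the edge, at -0.3001. The 16 buffers and sensors had none called and a median of 0.00, and the 3 genes of the mitochondrial uniporter had a median of 0.01. Between the runners, Slc8a1 (-0.30), Slc24a2 (-0.33), Camk2a (-0.31) and Hpca (-0.31), a sensor named for the hippocampus, were called lower in L-RUN than in H-RUN (4.71%, against 0.974% of all), and none was called higher. Camk2a was 16.81 in LD and 16.81 in H-RUN, against 16.50 in L-RUN.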

How the data were processed

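RNA of micro-dissected mouse DG was sequenced from 5 pools of mice, 1 library per group, and groups were taken from the labels. Per the submitters' processing notes and the study's methods, the authors used CASAVA 1.8.2, mapped reads to mm10 with TopHat2 2.0.10, counted them with HTSeq, and normalized all libraries together in DESeq2 1.10.1. They deposited 1 regularized log value (log2) per gene and library. Shrinkage by the authors cannot be undone without counts, and the strand setting of the counting is not given in the sources used here, so reads of an antisense gene cannot be told from those of its partner. Values are not corrected for transcript length, and depth is unknown.

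Differences between the deposited log2 values were computed with python 3.11.15, numpy 2.4.6 and pandas 2.3.3 and called at 0.3. Genes with a mean of at least 5 were compared. The technical SD came from the median absolute deviation of the RUN residual, per decile of level. Positions and lengths were taken by symbol from GENCODE on GRCm38 (the build of the files), and the length trend was a lowess curve (fraction 0.3, statsmodels 0.14.6). The rule for naming took all called genes, up to 3 uncalled ones per role with the highest mean, and the called pathway genes; further uncalled members are named where a role is given in full. Members and lists were chosen with earlier results of these data known. Scripts were tested on simulated data. Alternatives were other thresholds, median centring, quantile normalization, other filters, a baseline averaged over LD and CE and removal of the length trend, and, chosen after seeing the data, of trends with GC content, gene span and coding transcript length.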

Additional observations from a re-analysis of the deposited data

Results flagged for a closer look

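The following genes lay on opposite sides of LD in 2 groups that were at least 0.3 apart on the log2 scale; with 1 library per group, these differences were not tested. Atp2b4 was above LD in CE and below it in the running libraries, with a difference of 0.43 between CE and RUN, 0.32 between CE and L-RUN and 0.44 between CE and H-RUN. Cacna1i had the same arrangement, with differences of 0.33 for RUN, 0.33 for L-RUN and 0.32 for H-RUN. For Cacna1b, CE was above L-RUN by 0.34. Atp2b1 was above LD in H-RUN and below it in L-RUN, at a difference of -0.31 between L-RUN and H-RUN.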

How the results depend on the processing

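No call changed sign under any alternative, and no calcium gene was called higher in any of them. The counts below are of calcium genes called lower, where the report has 6 for L-RUN, 4 for RUN, 3 for H-RUN, 1 for CE and 4 between the runners. The share of all genes called lower under the same setting follows in brackets. A threshold of 0.4 gave 0 in CE (0.0664%), 2 in RUN (0.251%), 1 in H-RUN (0.148%) and 0 between the runners (0.325%). A threshold of 0.2 gave 3 in CE (1.82%), 11 in L-RUN (6.7%) and 8 between the runners (3.16%). With LD and CE averaged as the baseline, 2 were called in RUN (0.362%) and 1 in H-RUN (0.399%). Itpr1 was lost from both, Cacna1e from RUN and Trpm3 from H-RUN. Quantile normalization left 2 between the runners, Atp2b3 and Trpm3 (0.856%), and ended the calls of Cacna1b in L-RUN and Trpm3 in H-RUN. Removing the length trend gave 2 in RUN (0.462%), 1 in H-RUN (0.353%) and 1 between the runners (0.705%). The medians were then -0.0460 in L-RUN, -0.00662 in RUN, 0.0184 in CE and -0.0429 between the runners. With the length of the longest coding transcript, the counts were 0 in CE (0.129%), 2 in RUN (0.466%), 1 in H-RUN (0.338%) and 1 between the runners (0.683%). The medians with that length were -0.0474 in L-RUN, -0.00290 in RUN, 0.0209 in CE and -0.0379 between the runners. Removing the trend with gene span gave 2 in RUN (0.619%) and 1 between the runners (0.729%), and medians of -0.0638 in L-RUN and -0.0480 between the runners. Median centring, the filters on low values and removal of the GC trend left every count within 1.5 times and every median within the technical SD, and the mixture on the log scale left the residual SD within the technical SD. No paired analysis was possible because each group had 1 library.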

Other observations

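Among the genes outside the calcium list, C1ql2 was called higher than LD in the 3 running libraries and Kcnip3 in RUN. C1ql2, a secreted protein of granule cell terminals, lay between 12.06 and 12.10 in the 3 running libraries, against 11.86 in CE and 11.69 in LD. Kcnip3 was 11.23 in LD, 11.40 in CE and between 11.52 and 11.55 in those of runners. L-RUN minus H-RUN was -0.03 for C1ql2 and -0.01 for Kcnip3. Prox1, by contrast, was 11.61 in L-RUN and 11.93 in H-RUN. Granule cell markers thus did not move together in L-RUN: of 10 listed, 2 were called higher than LD and 1 lower. These genes were chosen after their values were seen.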
